A study of Gallus gallus with 31 samples.

Results

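Ion channels and neurotransmitter receptors were examined as 59 spots of 52 genes on a spotted cDNA array of the chicken anterior pituitary, out of 17193 spots tested. The spots were taken by gene symbol, from the families of potassium (KCN), calcium (CACN), sodium (SCN), chloride (CLCN) and transient receptor potential (TRPC, TRPM, TRPV) channels, and of GABA type A, glutamate, nicotinic, serotonin and ryanodine receptors. Each had to be measured on at least 16 of the 31 arrays. Of 62 spots whose symbol qualified, a SCN2B, a GABRE and a KCNK4 spot were measured on fewer arrays and left out, and no ryanodine receptor spot carried a qualifying symbol. The rule works on letters, so it also took in the mitochondrial protease HTRA2 (2 spots) and TRPC4AP, a protein named for its association with a TRP channel. These 3 spots are kept as a class of their own, and 56 spots of 50 genes remain without them.

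The birds were male meat-type chickens of 2 lines selected in opposite directions for body weight at 8 weeks, high growth (HG) and low growth (LG). Their anterior pituitaries were taken at 1, 3, 5 or 7 weeks of age. HG at week 1 had 3 birds, and the remaining 7 groups had 4 each. The lines were housed apart through week 3 and mixed afterwards, so that line and housing cannot be told apart at weeks 1 and 3. Birds of weeks 5 and 7 had also spent their first 3 weeks housed by line, so early housing goes with line at every age. The ration changed from starter to grower at week 3. Age, ration and mixing of the lines therefore cannot be told apart between week 1 and week 7. Amplified RNA of each bird was labelled with Cy3 and set against Cy5-labelled RNA pooled from every sample. The dyes were never swapped. All values are therefore log2 ratios of a bird to that pool. A difference of 1 is a doubling, and values of different genes say nothing about which gene is more abundant.

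Secretory cells of the anterior pituitary are electrically excitable. Sodium and calcium channels carry the inward currents of an action potential, calcium entry triggers release of hormone granules, and potassium channels end the action potential and set the resting potential. Receptors for transmitters act on top of this, either as ion channels themselves (GABA type A, ionotropic glutamate and nicotinic receptors) or through G proteins (metabotropic glutamate and most serotonin receptors). In whole glands, a change in RNA per cell and a change in the number of cells of a type cannot be told apart.

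No member passed the test for line. The smallest adjusted p was that of the serotonin receptor gene HTR1B (0.081, limma with Benjamini-Hochberg adjustment over all 17193 spots), with an HG minus LG difference of -0.46 on the log2 scale, averaged over the ages. Among all tested spots, 58 passed, or 0.337%. At an unadjusted p under 0.05, 2 of the 59 members differed (3.39%), against 7.25% of all tested spots, or 3.66% counting only those lower in HG. Both members, HTR1B and the potassium channel gene KCNK12, were lower in HG. The first is a receptor and the second a channel, so the counts are the same without HTRA2 and TRPC4AP. HG minus LG was positive for 24 of the 59 members, with a median of -0.01, and 50.3% of all tested spots were positive, with a median of 0.00.

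HTR1B encodes the serotonin 1B receptor, which couples to inhibitory G proteins. The study named it among its differentially expressed genes from these same arrays, so its direction here is no independent evidence. The study's rule was a p from a two-way ANOVA, with no adjustment over spots described, and a minimum fold difference. By the unadjusted two-way model here, HTR1B had a p for line of 0.0007. The fold part of the rule was not applied here. The adjusted test above is stricter, so its result does not contradict the study's call. The study also measured HTR1B by RT-qPCR and described that pattern as comparable to the array. On the array, the HTR1B spot was the brightest of the members, with a median Cy3 signal 73.5 times the local background. At week 1, the log2 ratios were -0.98, -0.79 and -0.02 in the HG birds, against -0.36, -0.38, -0.40 and -0.32 in the LG birds. At week 3 they were -0.67, -1.28, -0.00 and -0.87 in HG, against -0.35, -0.23, 0.06 and -0.48 in LG. The lines overlapped at both ages, with 1 HG bird at each age above all or all but 1 of the LG birds.

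At week 5, HTR1B stood at -0.83, -0.86, -0.32 and -0.68 in HG birds, and at -0.15, -0.59, 0.17 and -0.02 in LG birds. At week 7, 3 HG birds had -0.69, -0.62 and -0.28, against -0.03, -0.06, 0.27 and 0.16 in the LG birds. Week 7 was the only age at which the lines did not overlap for this gene. The share of all tested spots whose lines or ages separate in this way was not counted, here or for the genes below.

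In order of age, the difference HG minus LG was -0.23 ± 0.24 (SE), -0.46 ± 0.22, -0.53 ± 0.22 and -0.61 ± 0.24. The 4 estimates grew with age, but the line by age test gave an unadjusted p of 0.693, so a widening gap was not resolved. Averaged over the ages, the HG level was 72.8% of the LG level (95% interval 61.9% to 85.7%), on the log2 scale -0.46 ± 0.11 (SE), with 14 HG and 16 LG birds. The adjusted p crossed the threshold when any one of 3 birds was left out: 0.0120 without HG week 1 replicate 4, 0.0164 without HG week 3 replicate 3, and 0.0467 without LG week 5 replicate 2. With the birds left out one at a time, the difference stayed between -0.53 and -0.41. Without any other single bird the adjusted p stayed above the threshold, up to 0.166 without HG week 1 replicate 2. A header inside the file of HG week 1 replicate 1 names week 3. Without that bird the line difference was -0.41 (adjusted p = 0.158 by limma). The week 1 difference without it is not given here.

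**Figure D1:**
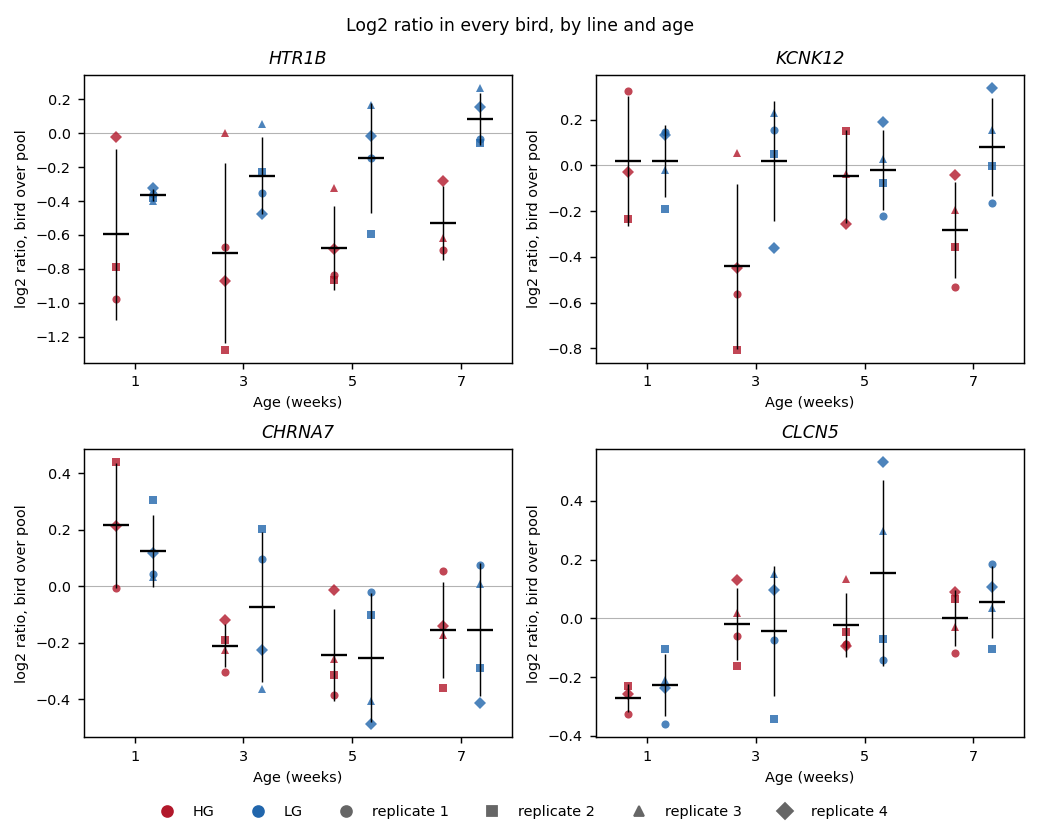
Log2 ratio of each bird to the pool (vertical axes) at weeks 1, 3, 5 and 7 (horizontal axes) for HTR1B, KCNK12, CHRNA7 and CLCN5. Points are birds, HG in red left of LG in blue, with the symbol giving the replicate number. Black lines are the group mean and 1 SD to each side. For HTR1B the HG birds lie between -0.69 and -0.28 at week 7, below all LG birds, and for CLCN5 all birds of week 1 lie between -0.36 and -0.10.

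HTR7, the other serotonin receptor on the array, couples to stimulatory G proteins. Its log2 ratios lay between -0.38 and 0.64 in HG birds, against -0.30 and 0.93 in LG birds, with a line difference of -0.09 ± 0.11 (SE, adjusted p = 0.974 by limma). The 2 receptors were not tested against each other.

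The NMDA receptor subunit gene GRIN1 was the only other member close to HTR1B in brightness, at 70.4 times background. Its log2 ratios spread widely, between -1.38 and 0.28 in 15 HG birds and between -1.14 and 0.33 in 13 LG birds, and its line difference was -0.16 ± 0.20 (SE, adjusted p = 0.976). Over the 27 birds with both values, HTR1B and GRIN1 varied together, with a Pearson r of 0.64, and of 0.65 once group means were removed. This is a description over birds that share arrays, dye and pool. Both genes also moved with the replicate number of the birds. HTR1B averaged -0.51, -0.60, -0.12 and -0.31 in birds numbered 1, 2, 3 and 4, and GRIN1 averaged -0.56, -0.86, -0.04 and -0.49. The arrays also differed by this number, with a median Cy3 signal over background of 3.25, 3.80, 4.24 and 5.45 in the same order. A link between signal and these averages was not tested. Blocking on the replicate number gave HTR1B a line difference of -0.45, which passed the test (adjusted p = 0.0221 by limma).

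Potassium channels formed the largest class, with 19 spots of 17 genes. KCNK12, a 2-pore domain (K2P) subunit, had the second smallest p for line of all members. At week 3 its log2 ratios were -0.56, -0.81, 0.05 and -0.45 in HG birds and 0.16, 0.05, 0.23 and -0.36 in LG birds. At week 7 they were -0.53, -0.36, -0.19 and -0.04 in HG birds and -0.16, -0.00, 0.15 and 0.34 in LG birds. The lines overlapped at both ages.

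KCNK12 differed by -0.46 ± 0.17 (SE) at week 3 and -0.36 ± 0.17 at week 7, and by 0.00 ± 0.19 at week 1 and -0.03 ± 0.19 at week 5. Averaged over ages the difference was -0.21 ± 0.09, an HG level 86.3% of that of LG (95% interval 76.0% to 98.2%), with an adjusted p of 0.537. The alternation between ages was not resolved by the line by age test (unadjusted p = 0.195).

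A further 4 potassium channel spots were among the 8 members with the smallest p for line. The Shaker-type subunit KCNA10 was 0.19 ± 0.10 (SE) higher in HG and was positive at each of the 4 ages. The median bird, however, stood at 0.00 in both lines, and the mean was carried by a few high HG birds, up to 0.82 in HG against at most 0.32 in LG. The cytoplasmic beta subunits KCNAB1 and KCNAB2 (spot 43.6.3) had differences of -0.13 ± 0.10 and -0.19 ± 0.15, and KCNH1, an ether-à-go-go channel, -0.25 ± 0.16. Adjusted p for these 4 spots lay between 0.746 and 0.899. These KCNH1 and KCNAB2 spots were dim, at 1.99 and 1.71 times background. The brighter KCNAB2 spot (41.1.7, 3.69 times background) had a difference of the opposite sign, 0.04.

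Over the class, 9 of 19 potassium channel spots were positive, with a median of -0.02. Differences of single ages were larger but no more regular. KCNB2, a delayed rectifier, was at -0.42 ± 0.23 (SE) at week 5 and 0.25 ± 0.23 at week 7, and KCNN2, a small-conductance calcium-activated channel, at 0.38 ± 0.21 at week 5 and 0.01 ± 0.21 at week 7. Their line by age tests gave unadjusted p of 0.221 and 0.180 by limma. KCNE3, an accessory subunit, stood at 0.22 ± 0.16 at week 3, and KCNV1, a modifier subunit that forms no channel alone, at -0.28 ± 0.21 at week 1.

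Voltage-gated calcium channels, which couple spikes to secretion, were represented by 9 spots of 8 genes. Line differences in this class were small, from -0.04 to 0.11, with 5 of 9 positive. The pore subunits CACNA1B (N type), CACNA1H (T type, 2 spots) and CACNA1S (L type) all had differences under 0.04 in size. CACNA1E, the R-type pore subunit, had the largest, 0.11 ± 0.13 (SE, adjusted p = 0.973), on 29 arrays with a signal of 2.19 times background. Its difference was 0.55 ± 0.28 at week 1, and -0.01, -0.14 and 0.02 at the later ages. The authors kept this spot on 1 array.

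Sodium channels (5 spots of 4 genes) and chloride channels and transporters (5 spots of 4 genes) had median line differences of -0.00 and -0.01. The sodium channel spots were those of the muscle-type pore subunit SCN4A and of the beta subunits SCN2B, SCN3B and SCN4B. SCN4A had the smallest p of its class (-0.10 ± 0.08, adjusted p = 0.908). SCN3B, next in brightness after HTR1B and GRIN1, had a line difference of -0.00 ± 0.09.

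The lysosomal chloride-proton exchanger gene CLCN7 had 2 spots of unequal quality. The bright one, 12.6 times background on all 31 arrays, differed by -0.01 ± 0.07 (SE). The dim one, 1.75 times background on 23 arrays, differed by -0.55 ± 0.48 with birds between -1.92 and 2.09 in HG and between -2.22 and 2.82 in LG.

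Among the other receptors and the TRP channels, no line difference passed the test. The AMPA receptor subunit GRIA2 was 0.15 ± 0.10 (SE, adjusted p = 0.868) higher in HG. At week 5 its HG birds stood at -0.03, 0.35, 0.06 and 0.05 against -0.41, -0.26, -0.21 and -0.30 in LG birds. These lines did not overlap, a separation not counted over all tested spots, and the week 5 difference was 0.40 ± 0.20 (adjusted p = 0.913). The nicotinic subunits ranged from -0.12 ± 0.12 for CHRNA8, a subunit known from birds, to 0.07 ± 0.06 for the muscle-type subunit CHRND. GABRP, the only GABA type A subunit measured, was at -0.04 ± 0.10, and the metabotropic glutamate receptors GRM4 and GRM7 were at -0.05 ± 0.16 and -0.03 ± 0.09. The TRP channels TRPC1, TRPC6, TRPV1 and TRPV2 lay between -0.07 and 0.01.

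**Figure D2:**
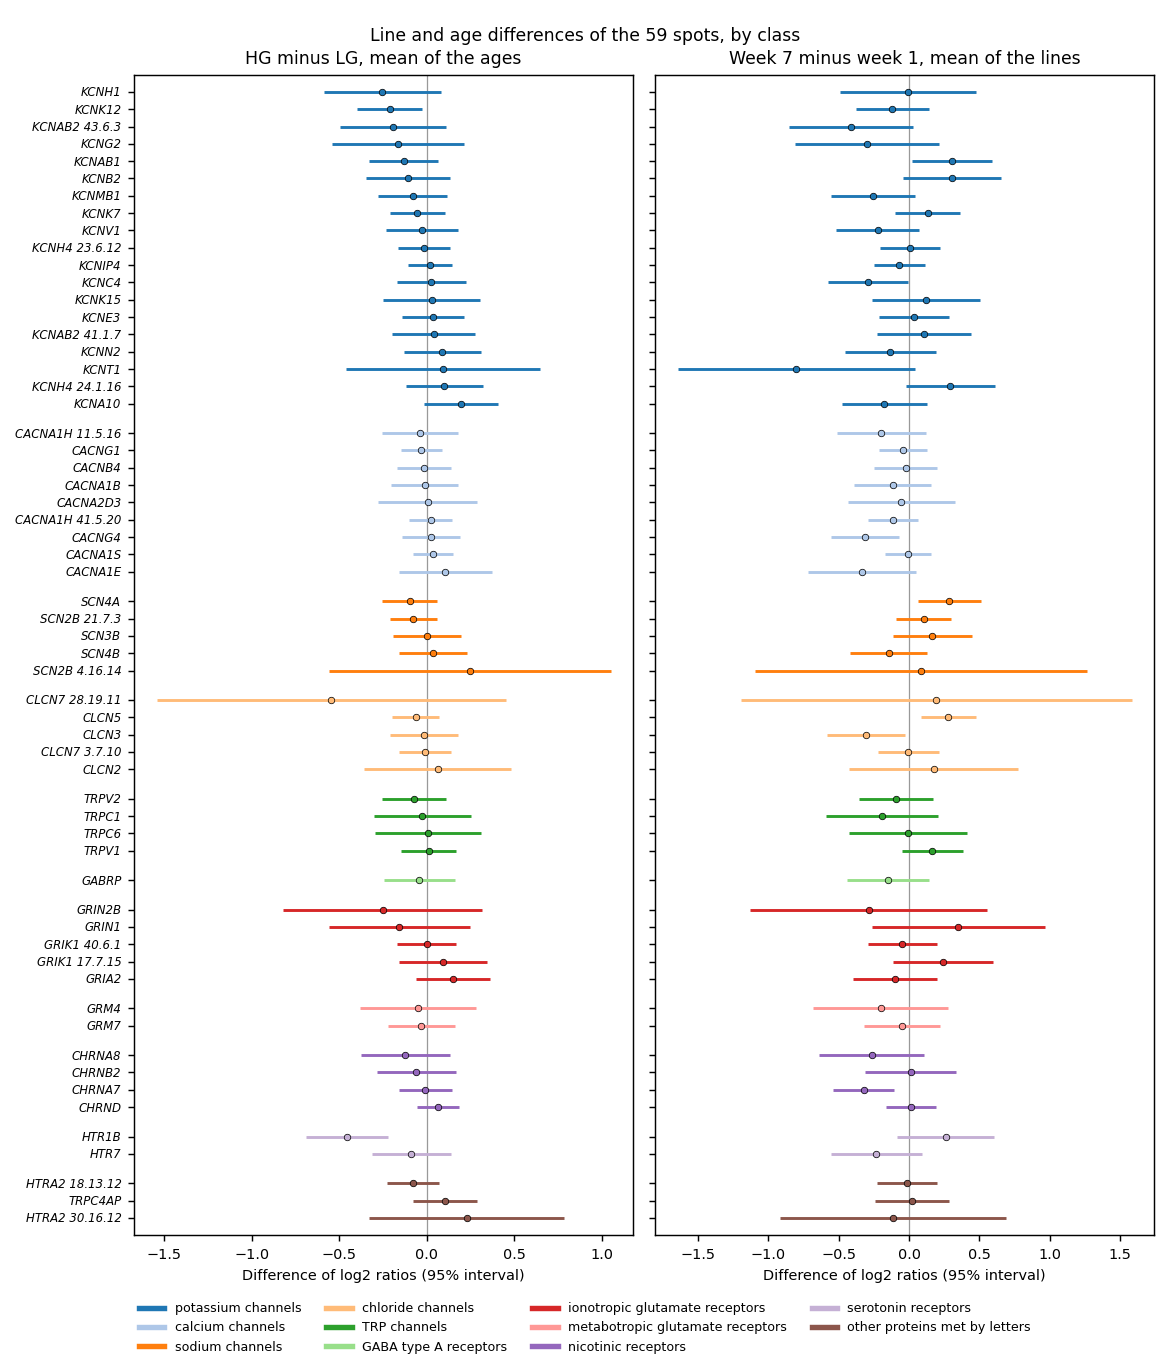
HG minus LG averaged over the ages (left) and week 7 minus week 1 averaged over the lines (right) for the 59 spots, as differences of log2 ratios (horizontal axes) with 95% intervals. Rows are spots, coloured by class and ordered within a class by the line difference, with the spot number added where a gene has several. The HTR1B and KCNK12 intervals on the left are the ones that leave out 0.

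At single ages, 0 members passed. Of all tested spots, 0.0116%, 0.00582%, 0.0407% and 0.0407% passed, in order of age. At an unadjusted p under 0.05 there were 0 members at week 1 (3.26% of all spots), 2 at week 3 (HTR1B and KCNK12; 4.26%), 1 at week 5 (HTR1B; 5.48%) and 2 at week 7 (HTR1B and KCNK12; 5.12%). In the same order, HG minus LG was positive for 34, 21, 29 and 22 of the 59 members (57.6%, 35.6%, 49.2% and 37.3%). Of all tested spots, 51%, 50.4%, 50% and 49.7% were positive. The medians were 0.03, -0.06, -0.00 and -0.05, against medians between -0.00 and 0.00 over all tested spots. There were 3 spots lower in HG at all 4 ages (GRIN2B, HTR1B and KCNH1), and 2 higher at all 4 (KCNA10 and the dimmer of the KCNH4 spots). The same count over all tested spots was not made. The authors kept the GRIN2B and KCNH1 spots on 0 arrays.

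**Figure D3:**
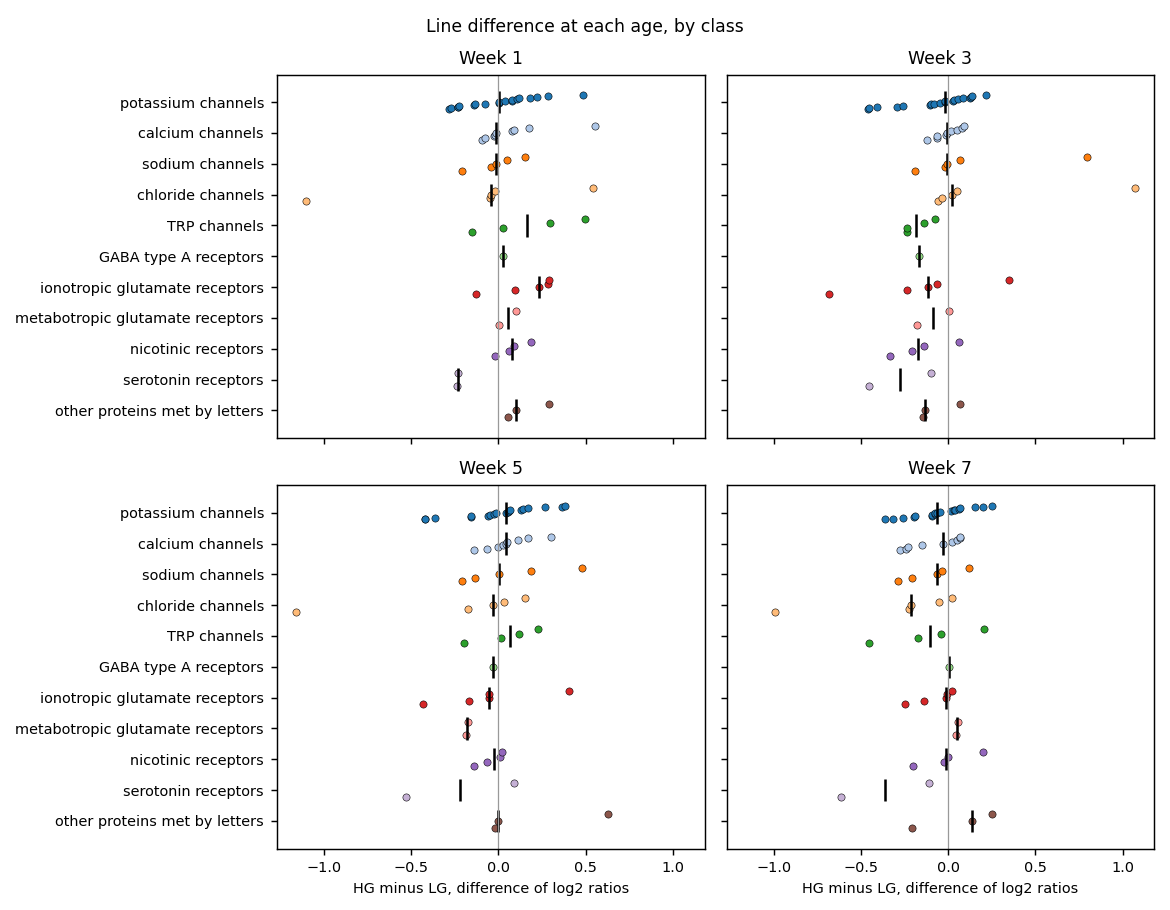
HG minus LG at weeks 1, 3, 5 and 7 (panels) as differences of log2 ratios (horizontal axes), by class (rows). Points are spots and black ticks are class medians. The serotonin row holds HTR1B, which runs from -0.23 at week 1 to -0.61 at week 7, and the points near -1 in the chloride row are the dim CLCN7 spot.

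No member passed the line by age test, which 0.0116% of all tested spots did. At the unadjusted threshold it was again 0 of 59, against 2.74% of all tested spots. The smallest p of a member was 0.0904, for TRPV1, the capsaicin receptor, which stood at -0.15 and -0.24 at weeks 1 and 3 and at 0.22 and 0.20 at weeks 5 and 7 (SE 0.14 to 0.16). TRPC6, a diacylglycerol-gated cation channel, had 0.50 ± 0.30 (SE) at week 1 and -0.45 ± 0.27 at week 7, from a dim spot measured on 25 arrays.

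Age was tested over the 4 weeks with lines averaged. No member passed, while 0.576% of all tested spots did. At an unadjusted p under 0.05 there were 4 of 59 members (6.78%), CHRNA7, CLCN5, CHRNA8 and SCN2B, against 8.61% of all tested spots. Between week 7 and week 1, 0 members passed, with 1.01% of all tested spots called. At the unadjusted threshold 7 of 59 differed (11.9%), against 11.8% of all tested spots. Of these, 3 had higher values at week 7 (SCN4A, CLCN5 and KCNAB1), against 6.13% of all tested spots, and 4 lower ones (CHRNA7, CACNG4, CLCN3 and KCNC4), against 5.65%.

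CHRNA7, which forms calcium-permeable nicotinic receptors, had the smallest p for age (0.00388, adjusted p = 0.217 by limma). The lowest, median and highest birds were at -0.01, 0.12 and 0.44 at week 1 and at -0.36, -0.21 and 0.20 at week 3. They were at -0.49, -0.29 and -0.01 at week 5 and at -0.41, -0.16 and 0.08 at week 7. The median was thus highest at week 1. All birds of week 5 lay below those of week 1, by the smallest of margins, and the birds of week 7 overlapped them. Week 7 was at 79.9% of week 1 (95% interval 68.7% to 92.9%), with week 7 minus week 1 at -0.37 in HG and -0.28 in LG.

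CHRNA8, the related alpha subunit, had medians of 0.33, -0.03, -0.31 and -0.06 from week 1 to week 7, on a dim spot (2.15 times background). Its week 7 minus week 1 difference was -0.26 ± 0.18 (SE). The other nicotinic spots, CHRNB2 and CHRND, were at 0.01 ± 0.16 and 0.01 ± 0.09.

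CLCN5, an endosomal chloride-proton exchanger, had its lowest median at week 1. Its birds were at -0.36, -0.24 and -0.10 (lowest, median, highest) at week 1 and at -0.34, -0.02 and 0.15 at week 3. They were at -0.14, -0.06 and 0.53 at week 5 and at -0.12, 0.05 and 0.19 at week 7. The lowest week 7 bird was thus just below the highest week 1 bird. Week 7 was at 121% of week 1 (95% interval 106% to 139%, adjusted p = 0.209), with differences of 0.27 in HG and 0.28 in LG. CLCN3, a related endosomal exchanger, had a difference of the opposite sign (-0.31 ± 0.14, SE, adjusted p = 0.374).

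All 9 calcium channel spots had a negative week 7 minus week 1 difference, with a median of -0.12, while 47.8% of all tested spots were positive, with a median of -0.01. The members as a whole also leaned to negative values, with 22 of 59 positive (37.3%) and a median of -0.05. The 1 GABA type A spot and the 2 metabotropic glutamate receptor spots were negative too. Sizes ran from -0.34 ± 0.19 (SE) for CACNA1E and -0.31 ± 0.12 for CACNG4 to -0.01 ± 0.08 for CACNA1S. The authors kept 8 of the 9 spots on 16 or more arrays, but CACNA1E on only 1. Of the 9, 5 were negative in both lines, and 1 (CACNG4, a gamma subunit of the family that also escorts AMPA receptors) had an interval that left out 0. The birds of CACNG4 were at -0.51, -0.22 and 0.07 (lowest, median, highest) at week 7 and at -0.10, -0.04 and 0.32 at week 1, with an adjusted p of 0.266.

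Of the 5 sodium channel spots, 4 had a positive week 7 minus week 1 difference, led by SCN4A at 0.29 ± 0.11 (SE, adjusted p = 0.281). The difference was 0.11 in HG birds and 0.47 in LG birds. In HG, the week 7 birds stood at 0.14, 0.21, 0.04 and -0.01 against -0.12, 0.38 and -0.28 at week 1. In LG they stood at 0.22, 0.29, 0.40 and 0.32 at week 7 against -0.21, 0.09, -0.31 and -0.22 at week 1. The HG ages overlapped and the LG ages did not, but the line by age test of SCN4A gave an unadjusted p of 0.357.

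SCN2B (spot 21.7.3) had its highest median at week 5, with medians of -0.06, 0.14, 0.27 and 0.12 in order of age (unadjusted p for age = 0.0374, adjusted p = 0.528).

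Of the potassium channel spots, 8 of 19 had a positive week 7 minus week 1 difference, with a median of -0.07. KCNAB1 had a difference of 0.30 ± 0.14 (SE). KCNC4, a Shaw-type channel of fast-spiking cells, had -0.29 ± 0.14, and KCNMB1, a beta subunit of the calcium- and voltage-gated BK channel, had -0.26 ± 0.14. The adjusted p of these 3 lay between 0.392 and 0.518. The largest week 7 minus week 1 difference of any member was that of KCNT1, a sodium-activated channel, at -0.80 ± 0.40, from a dim spot (2.49 times background) measured on 25 arrays.

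The precision of the comparisons varied with the signal. Residual SD here is the value moderated by limma, which draws each spot towards a common value. The 16 members under 3 times background had a median residual SD between birds of 0.38 and a median SE of the line difference of 0.147. In the 22 members from 3 to 6 times background these were 0.27 and 0.0964, and in the 21 brighter members 0.24 and 0.0899. Over the 59 spots, residual SD and signal had a Spearman rho of -0.47, given as a description. The 95% interval of the line difference lay wholly within 1.6-fold in either direction for 54 of 59 members (91.5%), against 90.8% of all tested spots. The authors kept 41 of the 59 members on 16 or more arrays (69.5%), against 60.6% of all tested spots.

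**Figure D4:**
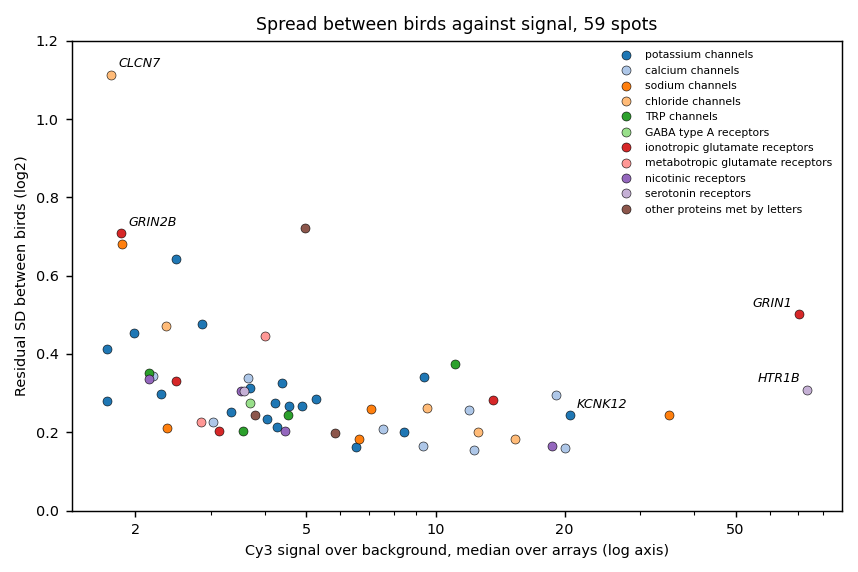
Residual SD between birds of the same group, as moderated by limma (vertical axis, log2 units), against the median Cy3 signal over local background (horizontal axis, log scale). Points are the 59 spots, coloured by class. Most spots above 3 times background lie between 0.15 and 0.40, and the dim CLCN7 and GRIN2B spots lie at 1.11 and 0.71.

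Where a gene had 2 member spots, they did not follow each other from bird to bird. The pairs of CACNA1H, CLCN7, GRIK1, HTRA2, KCNAB2, KCNH4 and SCN2B had Pearson r between -0.43 and 0.26 over the arrays they shared. The KCNH4 spots were printed from the same clone and had r = -0.08, with signals of 8.45 and 2.29 times background. For these genes the 2 values are given as those of spots, and neither is taken as the level of the gene.

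Other genes linked to ion transport were taken from a list of pumps, exchangers, store-operated and further channels. The list also held genes of proteins that are none of these, such as CALB2, CALM2, HPCA, FKBP1A, STX1A and SLC9A3R1. Of its genes, 40 were tested on 76 spots, 0 were called for line and 0 for week 7 minus week 1. At an unadjusted p under 0.05 there were 11 of 76 spots for line, against 7.25% of all tested spots, and 6 of 76 for week 7 minus week 1, against 11.8%. For line, 40 of 76 were positive with a median of 0.01, and for week 7 minus week 1, 46 of 76 with a median of 0.03.

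The 31 arrays had 14786 to 18342 good spots, and 46 to 59 of the members measured on each. The 16 spots of endocrine pituitary markers had signals between 1.87 and 123 times background. The hormone genes CGA, PRL and GH stood at 83.9, 77.4 and 60.5 times background, against 1.92 for a second GH spot, 2.29 and 4.27 for the POMC spots and 2.85 for FSHB. Of these, 13 were higher in HG and 2 were called (TSHB and FSHB). Neuronal markers (9 spots, 8 higher in HG, median 0.05) and glial markers (7 spots, 2 higher, median -0.11) had 0 calls for line. Per bird, the median of the glial spots lay between -0.47 and 0.18 in HG, against -0.49 and 0.44 in LG. That of the neuronal spots lay between -0.05 and 0.28 in HG, against -0.16 and 0.23 in LG. The glial gene SOX10 (spot 6.3.8) was lower in HG by an amount like that of HTR1B (-0.47 ± 0.16, SE, adjusted p = 0.358), while its other spot (10.17.12) was at -0.13 ± 0.09 (adjusted p = 0.861). Of 12 spots of macrophage and lymphocyte markers, 4 were higher in HG, with a median of -0.07 and 0 called for line. At an unadjusted p under 0.05 there were 3, against 7.25% of all tested spots. These were CTSS (spots 39.9.10 and 44.14.20) and CD74 (spot 14.12.12), all lower in HG, while the brightest CD74 spot (35.9.13) was at 0.01. For line, 4 of 4 erythrocyte, 7 of 9 endothelial and 3 of 5 skeletal muscle spots were higher in HG, with 0 called. For week 7 minus week 1, 2 of 16 endocrine spots (CHGB and PCSK1) and CD74 spot 19.2.13 were called. All rose, against 1.01% of all tested spots called. List medians of this difference were -0.05 (endocrine), -0.10 (neuronal), -0.17 (glial), 0.10 (macrophage and lymphocyte), -0.53 (erythrocyte), -0.01 (endothelial) and 0.03 (muscle). The part of other cell types in the HTR1B difference or in the age differences was not tested.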

How the data were processed

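RNA of 31 anterior pituitaries was amplified and hybridised by the authors, 1 array per bird, with Cy3 for the bird and Cy5 for the pool. The deposited scanner columns are intensity values read by the authors with Spotfinder 2.2.4, with a local background beside each channel. The authors normalized them in MIDAS 2.18 (signal-to-noise threshold 3, lowess by print block), giving the log2 ratios of the deposited value table.

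Normexp background correction (offset 50, on all spots) and a loess per array were applied to these intensities, as log2 ratios of Cy3 to Cy5. Flagged spots became missing values. Tests were run on spots with values on 16 or more arrays and in each of the 8 groups. Group means were fitted with lmFit and eBayes (limma 3.58.1, R 4.3.3), two-sided, with Benjamini-Hochberg adjustment over all 17193 tested spots and a threshold of 0.05. The fit was tested on simulated data with independent noise, which held no likeness between birds of the same replicate number. The number of arrays limits the precision.

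Gene symbols are those of the platform annotation, and all 62 spots matched a RefSeq symbol by gene ID. The members, classes and marker lists were chosen with earlier results of these data known. Values by bird are given for members with the smallest p for line, age, line by age or a single week, overall or in their class, and further members are named by their differences. The third replicate of HG at week 1 was not analysed here, and a header inside the file of HG week 1 replicate 1 names week 3, although the labels give week 1. Alternatives covered the background correction, the normalization, spot filters, the deposited values, the model, a replicate block and each bird left out. Clone sequences were not used here.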

Additional observations from a re-analysis of the deposited data

Results flagged for a closer look

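In 179 groups of 4 birds, over the 30 members chosen for values by bird, 8 groups held 1 bird far from the other 3 by Dixon's ratio of its gap to the range. Chance flags about 1 group in 20. No explanation was tested for any of them.

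The clearest was KCNV1 in HG at week 7, where replicate 1 stood at 0.41 and the others between -0.19 and -0.17. KCNN2 had -0.34 in HG week 3 replicate 4, with the others between 0.12 and 0.16, and KCNB2 had 0.89 in HG week 3 replicate 2, with the others between 0.00 and 0.12. The dim CLCN7 spot stood at -1.24 in HG week 7 replicate 4, with the others between -0.15 and 0.05.

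In LG birds, CACNG4 was at 0.21 in week 1 replicate 4 and at -0.49 in week 5 replicate 4. KCNAB2 (spot 43.6.3) was at -0.32 in LG week 5 replicate 4, and CHRND at -0.020 in LG week 5 replicate 3, above the other birds of its group.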

How the results depend on the processing

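The count of members called for line was 0 of 59 and became 1, in each case HTR1B, under 3 settings with an adjusted p. With the replicate block it was 1 of 59 (adjusted p = 0.0221). With a signal of at least 3 times background in both channels it was 1 of 38 (0.0370), against 85 of 10039 of all tested spots. With the deposited values and the block it was 1 of 41 (0.0195, chosen after seeing the data). Without the block, the deposited values called 188 of 10323 of all tested spots for line. The counts for line over all spots under the settings with the block are not given here. Birds left out one at a time gave 0 to 1. The HTR1B line difference was -0.34 with the deposited values and the block. Under the other settings, apart from birds left out, its adjusted p stayed above the threshold. It ran from 0.0577 without background correction to 0.576 with replicate numbers 2 to 4, a setting chosen after seeing the data. Print-tip loess gave 0.129, median centring 0.182 and array weights 0.185. Unadjusted two-way model p gave 2 members for line, 5 for age and 7 for week 7 minus week 1 of the 59. Of all 17193 spots these were 1252, 1485 and 2032. At single ages it gave 0, 1, 1 and 2 members in order of age. By unadjusted limma p, 3.26%, 4.26%, 5.48% and 5.12% of all tested spots differed at these ages. The deposited values with the block gave 2 members for week 7 minus week 1 (CLCN5 and KCNC4) of 41 tested, against 539 of 10323 spots, and an adjusted p of 0.0194 for the GRIA1 line difference (-0.29). Replicate numbers were shared by birds of different groups, but no label ties them to a batch. After group means were removed, same-numbered birds of different groups correlated at a mean r of 0.20 (78 of 105 pairs over 0.1). Differently numbered birds of different groups were at -0.06, a value that removing group means itself pulls below 0. Of 31 arrays, 28 correlated best with their own number among arrays of other groups. On the values used here, the block changed no other member call.

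Of the transport list, the spots called for line were 0. With the deposited values there were 3 of 54 (CALB2 and FKBP1A), against 188 of 10323 of all tested spots. With the deposited values and the block there were 4 of 54 (CALB2, FKBP1A and SARAF), with no count over all spots given here. Without background correction there was 1 of 76 (CALB2), against 109 of 17193. On spots present on all arrays there was 1 of 37 (CALB2), against 70 of 7786. Unadjusted two-way p gave 11 of 76, with the count over all spots given above. Birds left out gave 0 to 1 (CALB2). For week 7 minus week 1 there were 8 of 76 by unadjusted two-way p and 0 to 1 (P2RX7) with a bird left out.

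Some signs turned. Members that turned under any alternative had a median size of 0.026 for line and 0.052 for week 7 minus week 1. The largest were SCN2B (spot 4.16.14), 0.25 for line, and GRIN1, 0.35 for week 7 minus week 1. KCNK12 at week 1 (0.0016) was -0.0038 with all flags, -0.081 with array weights, -0.11 with replicate numbers 2 to 4, -0.015 with deposited values, -0.080 without background correction, -0.0088 with print-tip loess, -0.019 with scaling, -0.086 with the signal filter and -0.15 to 0.13 with a bird left out. TRPC4AP, week 7 minus week 1, (0.018) was -0.021 with array weights, -0.030 with numbers 2 to 4, -0.013 with print-tip loess, -0.011 with the block and -0.082 to 0.11 with a bird left out. The line difference of GABRP was 0.029 with the signal filter and -0.081 to 0.0013 with a bird left out, that of GRM7 0.027 with median centring, 0.0077 with print-tip loess and -0.069 to 0.0041 with a bird left out, that of GRIN1 0.048 with numbers 2 to 4, and that of GRIN2A -0.11 to 0.054 with a bird left out. KCNN2 at week 7 was -0.030 with print-tip loess and -0.21 to 0.21 with a bird left out, and KCNB2 at week 1 -0.44 to 0.0068. Of the 59 members, 27 kept the sign of the line difference and 33 that of week 7 minus week 1 under all alternatives run; causes were not tested.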

Other observations

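Glutamate receptor genes outside the platform symbols were also on the array. The study annotates spots as the AMPA receptor subunit GRIA1 and the NMDA receptor subunit GRIN2A and picked them from these same arrays, so their directions are no independent evidence. They were looked at after their values were known. GRIA1 had an HG minus LG difference of -0.27 on the log2 scale (SE 0.09, adjusted p = 0.301 by limma), with weekly differences of 0.17, -0.32, -0.24 and -0.68 in order of age. Its line difference passed only with the deposited values and the replicate block among the alternatives with an adjusted p (-0.29, adjusted p = 0.0194), and its line by age test had an unadjusted p of 0.0241 by limma. GRIN2A had a line difference of -0.04 (SE 0.12, adjusted p = 0.990 by limma). Its weekly differences were 0.30, 0.30, -0.74 and -0.03 in order of age, with an unadjusted line by age p of 0.0167. The adjusted line by age p was 1.00 for both genes. The study's rule, described above for HTR1B, had no stated adjustment over spots. By the unadjusted two-way model here, GRIA1 had a p for line of 0.00601.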
